A study of Homo sapiens with 7 samples.

Results

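Monomethylated lysine 4 of histone H3 (H3K4me1) was profiled in HCT116 cells, a human colorectal carcinoma line of epithelial origin. The deposited H3K4me1 list held 50521 intervals, of 240889 in the 6 lists used for the series. All of them were taken, each with its hg19 position and fold enrichment, and each was assigned to the nearest protein-coding transcription start site (TSS). The labels name no treatment, genotype or time point, and the comparisons are between marks and between parts of the genome. Chromatin came from a single well per antibody, with 200000 cells in 100 μl that were sheared for 6 min in PIXUL, an ultrasound device for multiwell plates. There was 1 library per mark and no replicate, so no value here has a replicate error and no test between marks was run. The depth of the library is unknown from the list. The lists of H3K4me3, H3K9Ac, H3K27me3, H3K36me3 and CTCF, each from 1 well of the same line, were used only to describe the H3K4me1 intervals. H3K27Ac was not analysed here.

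H3K4me1 is written mainly by the methyltransferases KMT2C and KMT2D at enhancers, regulatory sequences that can lie far from the gene they act on. It is found both at active enhancers, which also carry histone acetylation, and at primed enhancers, which do not yet. At active promoters the TSS itself carries H3K4me3 and H3K4me1 typically lies on its flanks. In epithelial cells many enhancers bind AP-1, the dimer of FOS and JUN family proteins, whose recognition sequence reads TGACTCA or, on the opposite strand, TGAGTCA. In colorectal cancer lines, Wnt signalling through TCF/LEF factors and signalling from the EGF receptor through MAP kinases are also active.

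The AP-1 sequence was common at H3K4me1 intervals far from genes. In the 500 bp window at the midpoint, 36.4% of the intervals over 10 kb from a coding TSS held TGANTCA on either strand, against 15.05% of all 500 bp windows of hg19 without unknown bases. For TGACTCA alone, on either strand, the shares were 29.0% and 7.56%. The margin over the genome was thus about as large for TGACTCA alone, and the forms with A or T in the middle added little to it. The following stretches of the hg19 plus strand have the TGANTCA match in capitals. They are shown because they carry these letters in the window of a distal interval named here. Those of SEPTIN9, GPR142 and TCF7L2 have A or T as the middle base and so do not read TGACTCA or TGAGTCA. The first 5 come from the intervals of highest fold enrichment or greatest width, and the last 3 from the highest distal interval of a gene with many intervals, a selection made after the values were seen. The windows of the highest distal intervals of TRIB1 and AGAP1 also held a match and are not printed. Most of the distal intervals from which these were selected held no match in the window. Among those without were the highest distal intervals assigned to SLC38A10, MYC, IRS1 and SOX9.
B3GAT1, chr11:134721897-134721963: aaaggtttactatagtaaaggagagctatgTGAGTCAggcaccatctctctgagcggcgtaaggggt
ITGA3, chr17:48105628-48105694: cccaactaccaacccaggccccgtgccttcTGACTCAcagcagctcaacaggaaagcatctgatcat
SEPTIN9, chr17:75251007-75251073: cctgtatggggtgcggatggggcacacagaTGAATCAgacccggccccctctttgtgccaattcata
GPR142, chr17:72376997-72377063: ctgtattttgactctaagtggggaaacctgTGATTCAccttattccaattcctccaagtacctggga
PCDH7, chr4:30841456-30841522: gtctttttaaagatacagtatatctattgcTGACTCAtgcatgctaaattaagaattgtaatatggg
TCF7L2, chr10:114829533-114829599: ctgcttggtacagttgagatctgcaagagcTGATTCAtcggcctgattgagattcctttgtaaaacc
TNS3, chr7:47267632-47267698: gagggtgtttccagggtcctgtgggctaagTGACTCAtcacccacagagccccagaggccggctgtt
HS3ST1, chr4:11632042-11632108: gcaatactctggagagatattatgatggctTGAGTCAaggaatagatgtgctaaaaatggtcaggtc

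The names are those of the nearest coding gene. The interval near B3GAT1, a glucuronyltransferase gene, lay in intergenic sequence 439 kb upstream of its TSS and had a fold enrichment of 14.9. The interval near ITGA3, which encodes an integrin subunit of epithelial cells, lay 25.9 kb upstream (fold enrichment 14.0). That near SEPTIN9, a cytoskeletal GTPase gene, lay 24.2 kb upstream (13.5), and that near GPR142 lay 12.01 kb downstream of the TSS (12.9). The TCF7L2 interval (7.30) was in an intron of its own gene, 112 kb downstream of the TSS. The TNS3 interval (7.05) lay 353 kb downstream of the TSS, beyond the end of the gene. A sequence match describes the reference genome and does not show that a factor was bound.

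Fold enrichment is the ratio over the local background that the authors' peak caller gave to the interval as a whole. Its median over the H3K4me1 list was 4.02, with a range of 1.24 to 17.4 and a middle 50% of 3.45 to 4.92. The median width was 1341 bp, from 300 bp to 85692 bp, and wider intervals tended to have higher fold enrichments (Spearman's rho 0.56 over 50521 intervals of the same library, a description). The intervals covered 108 Mb, 3.49% of hg19. The authors' limits (q-value below 0.001 and fold enrichment above 2) were passed by 63.9% of the intervals (95% Wilson interval 63.5 to 64.3%). Those that passed had a median width of 1906 bp, against 788 bp for the others. Such intervals cover counting error only.

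Most H3K4me1 intervals lay away from genes' start sites. A coding TSS was contained in 7187 intervals (14.2%, 13.9 to 14.5%), and 4731 more lay within 1 kb of one. A further 4904 lay at 1 to 5 kb and 3700 at 5 to 10 kb. Distances of 10 to 50 kb were found for 14862 intervals, of 50 to 100 kb for 6831 and of more than 100 kb for 8306. In total 29999 intervals (59.4%, 59.0 to 59.8%) were more than 10 kb from any coding TSS, and these are called distal here. The median distance, measured from the nearest edge, was 18523 bp. Past the authors' limits the share containing a TSS was 18.9% and the distal share 55.6%. When genes of every class were used in place of coding genes, 40.9% of the intervals were more than 10 kb away, with a median distance of 6190 bp.

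**Figure D1:**
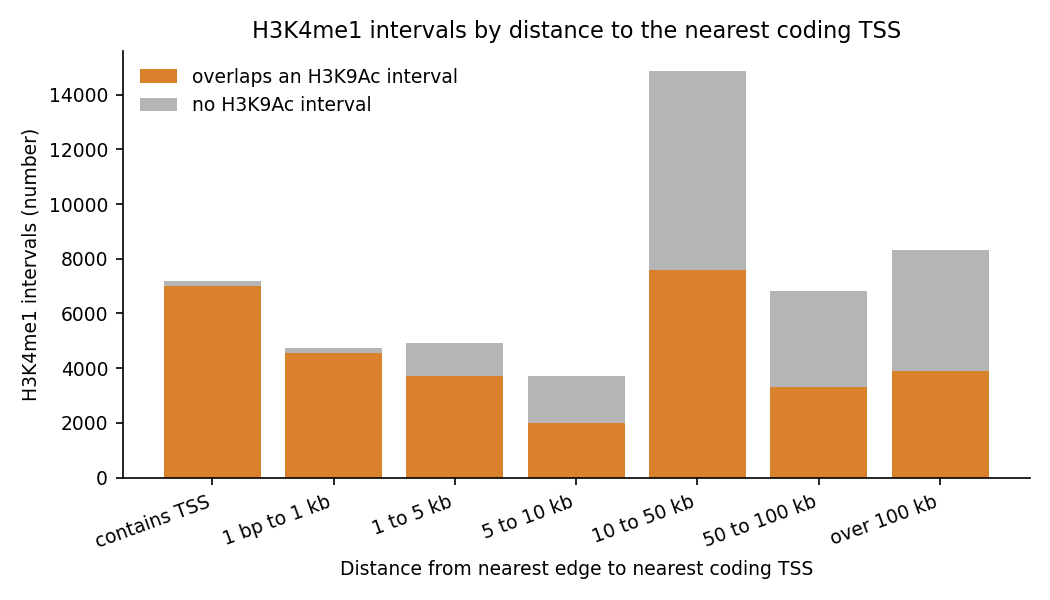
Number of H3K4me1 intervals (vertical axis) in each class of distance from the nearest edge of the interval to the nearest coding TSS (horizontal axis), split by overlap of at least 1 bp with an H3K9Ac interval, in 1 library each. Of the 7187 intervals containing a TSS, 7010 overlapped H3K9Ac, against 3910 of the 8306 at more than 100 kb.

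H3K4me1 lay between the promoter marks and the marks of gene bodies and repressed domains in this respect. The share of intervals containing a TSS was 66.4% for H3K4me3, 31.9% for H3K9Ac, 8.25% for CTCF, 1.92% for H3K27me3 and 0.847% for H3K36me3. The distal share was 24.5% for H3K4me3, 53.6% for H3K9Ac, 72.7% for CTCF, 69.5% for H3K36me3 and 87.9% for H3K27me3. These lists differ in depth and in the strength of their intervals, so the order is that of the lists as deposited. The peak names in the H3K27me3 list do not name the cell line.

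The H3K4me1 intervals that contained a start site were the wider and stronger ones. Those containing a TSS had a median width of 2657 bp and a median enrichment of 4.60-fold, against 1239 bp and 3.93-fold for distal intervals. Intervals within 1 kb that did not contain the TSS were narrow, with a median width of 846 bp (fold enrichment 3.97). A wide interval can contain a TSS by its length alone, and wider intervals tended to have higher fold enrichments. The part of width in these differences was not tested. Among intervals without a TSS, fold enrichment hardly varied with distance (Spearman's rho -0.01 over 43334 intervals of 1 library). Relative to the direction of transcription, 43.1% of the intervals within 1 kb lay downstream of the TSS (95% interval 41.7 to 44.6%). At 1 to 5 kb this share was 66.0% (64.6 to 67.3%), and beyond 100 kb it was 62.2% (61.1 to 63.2%).

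By the midpoint, 49.6% of the H3K4me1 intervals were in introns of coding genes, which make up 41.9% of the bases of hg19. Exons of coding genes held 10.5% (3.80% of bases), genes of other classes 12.1% (16.4%) and intergenic sequence 27.8% (37.9%). Of the distal intervals alone, 3.99% were exonic and 48.5% intronic. The nearest TSS was not always that of the gene in which an interval lay. Of the distal intervals, 37.5% (36.955 to 38.1%) were in the body of the gene they were assigned to, 15.01% (14.6 to 15.4%) only in the body of another coding gene, and 47.5% (46.9 to 48.1%) in no coding gene.

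Around active start sites H3K4me1 formed shoulders on both sides of the TSS. Of 20163 coding genes, 12346 had an H3K4me1 interval within 1 kb of the TSS (61.2%, 95% interval 60.6 to 61.9%). Among the 12428 genes with H3K4me3 in that window the share was 92.0%, and among the 7735 without it 11.8%. At genes with H3K4me3, 59.1% of TSSs lay inside an H3K4me1 interval. The covered share was higher at 500 bp upstream (68.9%) and at 1100 bp downstream (63.5%) than at the TSS, and it was 9.37% at 10 kb upstream. H3K4me3 intervals covered 97.4% of the same TSSs. In 3398 of these genes (27.3%, 26.6 to 28.1%) the TSS was free of H3K4me1 with an interval within 3 kb on each side. Only 423 (3.40%) had no H3K4me1 within 3 kb. Genes with H3K27me3 at the TSS, the mark of Polycomb repression, had H3K4me1 there in 32.1% of 1936 cases.

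**Figure D2:**
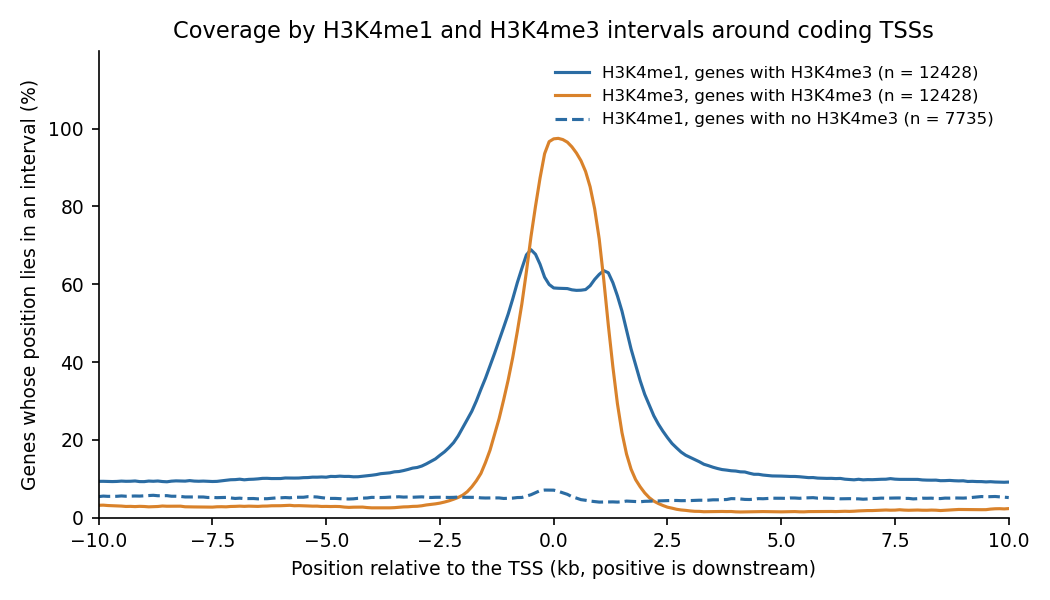
Share of coding genes (vertical axis, %) whose position at a given distance from the TSS (horizontal axis, kb, downstream positive) lay inside an H3K4me1 or H3K4me3 interval, for genes with and without an H3K4me3 interval within 1 kb of the TSS. For genes with H3K4me3, the H3K4me1 line has maxima of 68.9% and 63.5% on either side of the TSS, where it is 59.1%, and the H3K4me3 line is highest near the TSS.

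Distal H3K4me1 intervals fell into a set with H3K9Ac and a set of almost equal size without it. H3K9Ac, an acetylation of active promoters and enhancers, overlapped 14837 distal intervals (49.5%, 48.9 to 50.02%). CTCF, the zinc-finger protein of chromatin loop anchors, overlapped 6824 (22.7%, 22.3 to 23.2%) and H3K36me3, the mark of transcribed gene bodies, 3860 (12.9%, 12.49 to 13.3%). H3K4me3 overlapped 3204 (10.7%, 10.3 to 11.03%) and H3K27me3 1209 (4.03%, 3.81 to 4.26%). Over all H3K4me1 intervals the shares were 63.5% for H3K9Ac, 33.9% for H3K4me3, 27.003% for CTCF, 17.8% for H3K36me3 and 4.04% for H3K27me3. The distal share was thus lower for every mark but H3K27me3, where it was nearly the same. None of these marks overlapped 11283 distal intervals (37.6%, 37.1 to 38.2%). Nearly all distal intervals with H3K4me3 also had H3K9Ac: 57 of 3204 did not. With the authors' limits on both lists, under which the H3K9Ac list is cut more severely than that of H3K4me1, the share with H3K9Ac was 9.95%.

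The overlap with H3K9Ac went with the strength and width of the H3K4me1 interval. For distal intervals with H3K9Ac the median width was 2096 bp and the median fold enrichment 4.66, against 817 bp and 3.51 for those without. When all intervals were divided into 10 equal parts by fold enrichment, the share of distal intervals with H3K9Ac was 16.2% in the lowest part and 53.2% in the sixth. It reached 96.5% in the highest part, where the intervals had a median width of 3326.5 bp. The share with H3K4me3 went from 5.08% to 31.1% and that with CTCF from 18.1% to 35.6% over the same range. A wide interval can overlap another by its length alone, and the part of width in these shares was not tested. When at least 50% of the H3K4me1 interval had to be covered, H3K9Ac was found at 33.8% of the distal intervals.

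The 10 distal intervals with the highest fold enrichment had values from 12.9 to 16.7, and all of them overlapped H3K9Ac. In the highest of the 10 parts by fold enrichment, 96.5% of the distal intervals did. The copy number of the loci of these 10 intervals was not analysed. The highest lay 31.4 kb upstream of SLC38A10, an amino acid transporter gene, at chr17:79300532-79305817, within the long non-coding RNA gene TMEM105. After B3GAT1 came an interval 95.2 kb upstream of CTDP1, a phosphatase gene for RNA polymerase II (14.0), the only one of the 10 with neither H3K4me3 nor CTCF. An interval in an intron of GRAMD4 had a value of 13.8. The interval 28.3 kb upstream of WNT7B, a Wnt ligand gene, had 13.3, and that 20.4 kb upstream of GPR132, a G protein-coupled receptor gene, had 13.2. The interval assigned to TUBB8B (13.1) began at position 11389 of chromosome 18, next to the end of the chromosome. Over all intervals, the highest values were at S1PR4 and SPHK1, which encode a receptor for sphingosine 1-phosphate and the kinase that makes this lipid, at 17.4 and 17.2, both containing the TSS.

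The widest distal intervals lay in a few loci. Introns of PCDH7, a protocadherin gene of cell adhesion, held 3 of the 5 widest, of 73781, 67087 and 55330 bp, with fold enrichments between 4.78 and 5.30. The interval of 64154 bp upstream of KLF14, a Krüppel-like factor gene, overlapped the long non-coding RNA genes LINC-PINT and LINC00513 (fold enrichment 7.07). That of 52172 bp assigned to C9orf50 overlapped LINC00963 (8.46). All 5 overlapped both H3K9Ac and H3K36me3, by at least 1 bp. Intervals this wide can overlap others by their length alone, and the part of width was not tested.

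Assigned to their nearest TSS, H3K4me1 intervals were spread unevenly over genes. At least 1 interval was assigned to 15622 coding genes (77.5%, 76.9 to 78.05%), with a median of 2 and a mean of 2.51 over all coding genes. As many as 10 or more were assigned to 752 genes (3.73%), which together held 21.2% of all intervals. Another 4541 genes had none. Of these, 348 were olfactory receptor genes, and 470 had a TSS inside an interval that was assigned to another gene. The number grew with the territory of a gene, the part of the genome nearer to its TSS than to that of any other coding gene (Spearman's rho 0.43 over 20163 genes of 1 library). The median territory was 37.2 kb for genes without an interval and 553 kb for genes with 20 or more. Genes with H3K4me3 at the TSS had a mean of 3.17 intervals and the others 1.44.

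The genes with the most intervals were MYC with 51, IRS1 with 48, ZFP36L1 with 44 and TCF7L2 with 43. MYC encodes the transcription factor of cell growth, IRS1 the adaptor of insulin and IGF receptors, ZFP36L1 an RNA-binding protein that promotes decay of AU-rich messages and TCF7L2 the main TCF factor of the intestine. They were followed by SOX9, a transcription factor of the intestinal crypt, and TNS3, a tensin of focal adhesions, with 39 each. TRIB1, a pseudokinase gene, had 38, PARD3, a cell polarity gene, 36 and PCDH7 35. RAD51B, of homologous recombination, and AGAP1, a regulator of ARF GTPases, had 34. HMGA2, a chromatin architectural factor, HS3ST1, a heparan sulfate sulfotransferase, and MED13L, a Mediator subunit, had 33. TIGIT, an immune checkpoint receptor of T and NK cells, had 32, as did NR2F1 and GSE1, and took the last of the 15 places by the summed width of its intervals. Past the authors' limits ZFP36L1 came first with 34 intervals, followed by SOX9 and TNS3 with 26 each. IRS1 had 25 and MYC 22, and 10 of the 15 genes remained. The territories of these 15 genes ranged from 426 to 4692 kb, and the number of intervals per 100 kb of territory from 0.746 at PCDH7 to 7.78 at TCF7L2. The mean over the genome was 1.63 per 100 kb. Copy number, which can differ between these loci, was not analysed.

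**Figure D3:**
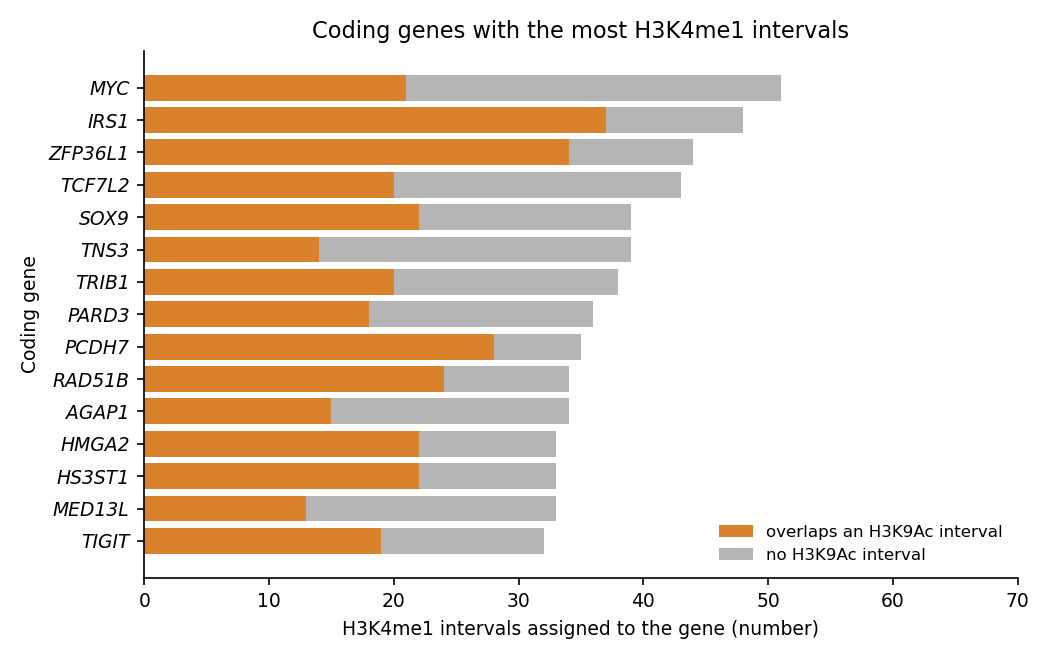
Number of H3K4me1 intervals (horizontal axis) assigned to each of the 15 coding genes with the most (vertical axis), split by overlap with an H3K9Ac interval. MYC has 51, of which 21 overlap H3K9Ac, and IRS1 48, of which 37 do.

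These counts did not sit at promoters. Of the 51 intervals of MYC, 48 were distal and only 6 lay within 50 kb of its TSS on chromosome 8 at position 128748477. They extended from 139 kb upstream to 929 kb downstream, and 29 of them were inside the long non-coding RNA gene PVT1. The highest, with a fold enrichment of 6.71, lay 62.7 kb upstream at chr8:128679230-128685802 and overlapped H3K9Ac and H3K27me3. The interval nearest to the MYC TSS ended 342 bp upstream of it (6.37). At MYC 21 of 51 intervals overlapped H3K9Ac and 22 passed the authors' limits. Over all H3K4me1 intervals 63.5% overlapped H3K9Ac and 63.9% passed, and of the distal intervals 49.5% overlapped H3K9Ac. The median fold enrichment was 3.47 at MYC and 4.02 over all intervals.

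IRS1 had its intervals on 1 side: all but the one over its TSS lay downstream, up to 660 kb away, and 37 of 48 overlapped H3K9Ac. The territory of IRS1, 718 kb, also lay mostly downstream of the TSS, and only intervals within it are assigned to IRS1. Its TSS lay inside an interval of 7261 bp (5.68). The highest distal one (6.56), of 15876 bp, was in an intron of the gene. For SOX9, 38 of 39 intervals were distal, from 931 kb upstream to 480 kb downstream, and 23 were in the long non-coding RNA gene LINC00511. The highest SOX9 interval (8.27) was 216 kb downstream of the TSS, on chromosome 17 at 70333495 to 70337901. At TCF7L2, 17 of 43 intervals were in its own body and 13 in VTI1A, the neighbouring gene of vesicle transport. At PARD3, 32 of 36 were in the gene itself, and at TNS3 25 of 39.

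In some loci the nearest TSS was not that of the gene that held the intervals. Of the 44 intervals assigned to ZFP36L1, 35 were inside RAD51B, whose own 34 assigned intervals were all in its body, the nearest 40.0 kb from its TSS. Both genes thus drew on the intervals of a single large gene body. All 32 intervals assigned to TIGIT were inside ZBTB20, a zinc-finger repressor gene. The nearest was 69.0 kb from the TIGIT TSS, which had none of the 6 marks within 1 kb. When the TSSs of all coding transcripts were used, ZBTB20 was among the 15 genes with the most intervals, TIGIT and ZFP36L1 were not, and RAD51B had the most (60). The TSS of PCDH7 also had no H3K4me1 within 1 kb, the nearest interval ending 2.03 kb upstream. Of its 35 intervals, 28 overlapped H3K9Ac and 20 overlapped H3K36me3.

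Counted per length of territory, other genes came first. Among genes with 10 or more intervals, PTP4A3, a phosphatase gene, had 15.7 intervals per 100 kb (11 in 69.97 kb). WASF2, of actin assembly, had 14.2, ETV4, an ETS factor induced by MAP kinase signalling, 13.5 and ARHGAP35, a GTPase-activating protein, 13.0. The next were ENSG00000288715, a coding gene without a symbol in the annotation (12.46), and ARF6, a GTPase gene of membrane traffic (12.1). NFAT5, the factor of osmotic stress, had 11.9, RIPOR3 11.8, BCL10, an adaptor towards NF-κB, 11.7 and SYT7, a synaptotagmin, 11.7. At PTP4A3 5 of 11 intervals overlapped H3K27me3. Of the 15 genes with the most intervals, TCF7L2 stood highest in this order, at rank 117.

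Joined at gaps of up to about 13 kb, a distance often used for stitching clustered enhancers, the intervals formed 26568 runs, of which 287 held 10 or more intervals (7.33% of all intervals). The longest, of 302 kb on chromosome 19 (18382977 to 18685042), had 32 intervals and 12 coding TSSs, among them those of JUND, of the AP-1 family, and GDF15, a stress-induced cytokine. The next, of 288 kb on chromosome 10, had 29 intervals and a single coding TSS, that of MPP7, a gene of cell junctions. Of the 5 longest runs, that of 271 kb at PCDH7 was the most filled, with 81.8% of its length covered by 14 intervals. At TRIB1 a run of 256 kb had 27 intervals, with a highest fold enrichment of 8.92. At ERRFI1, the feedback inhibitor of the EGF receptor, a run of 236 kb had 17 intervals and was covered to 75.7%. In this set 4 runs thus contained a single coding TSS.

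The density of intervals varied with the chromosome. It was 42.8 per Mb of known sequence on chromosome 19, 38.3 on 17 and 36.3 on 22, and 10.1 on 13 and 5.93 on X, against 17.7 in the genome. Copy number and mappability, which can differ between chromosomes and loci, were not analysed here. The density followed that of coding genes (Spearman's rho 0.92 over 24 chromosomes of 1 library, a description). Chromosome 19, where start sites are dense, had the lowest distal share of its intervals, 34.1%.

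Lists of genes by function differed in H3K4me1 at the TSS, to be read against the 61.2% of all coding genes. The lists also differed in H3K4me3 at the TSS. H3K4me1 was there in 92.0% of coding genes with H3K4me3 and in 11.8% of those without. Whether the lists differed beyond this was not tested. The 8 markers of colon epithelium, CDX2, EPCAM, CDH1, KRT8, KRT18, KRT19, CLDN4 and CLDN7, all had an interval within 1 kb of the TSS and 6 to 13 within 50 kb. Of the epithelial adhesion, junction and keratin genes, 22 of 22 had H3K4me1 at the TSS and 21 had H3K4me3 there. In this list GRHL2, the epithelial transcription factor, had the most assigned intervals (13), and TJP1, of tight junctions, had 9. All 19 immediate early and AP-1 genes had both H3K4me1 and H3K4me3 at the TSS. KLF6 had 23 intervals, FOSL2, the FOS-related AP-1 subunit, 18 and IER2 12, while JUND, JUNB and FOSL1 had 1 each in territories of 24.3 kb or less.

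**Figure D4:**
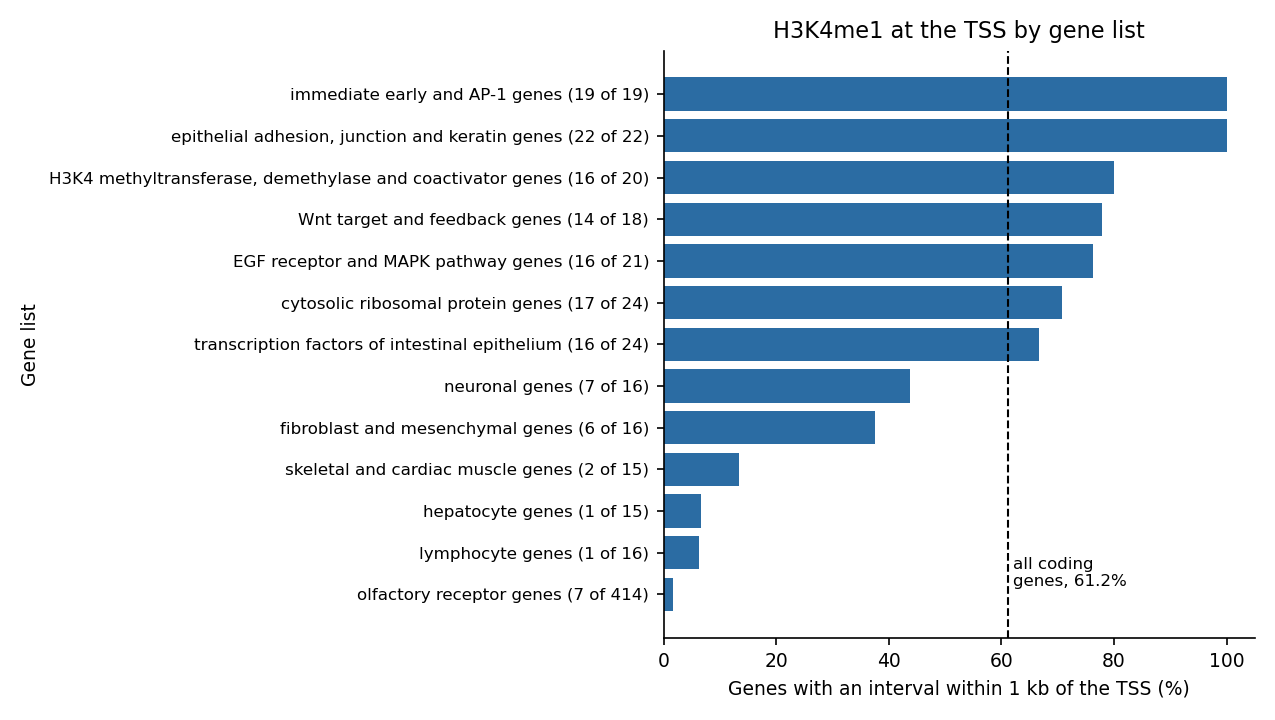
Share of genes with an H3K4me1 interval within 1 kb of the TSS (horizontal axis, %) in each gene list (vertical axis, with the number of genes marked and listed). The dashed line is the share among all 20163 coding genes, 61.2%, and the lists of muscle, hepatocyte, lymphocyte and olfactory receptor genes lie at 13.3% or less.

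Genes of EGF receptor and MAP kinase signalling had H3K4me1 at 16 of 21 TSSs and often many intervals around them. All 21 had H3K4me3 at the TSS, and of all coding genes with H3K4me3 there, 92.0% had H3K4me1. In this list 10 genes had 10 or more intervals, against 3.73% of coding genes, and the median of the list was 8. PHLDA1 and SPRED2 had 24 each, the first with 22 overlapping H3K9Ac, and DUSP4, a MAP kinase phosphatase gene, had 22. SPRED2 and SPRY4 (20) encode inhibitors of the pathway. The receptor gene EGFR and the ligand gene TGFA had 10 and 13. The median territory of this list, 189 kb, was larger than that of all coding genes, 60.4 kb. Per 100 kb the list had 3.04 intervals and the genome 1.63. Similar or higher values were found for the lists of H3K4 methyltransferases, demethylases and coactivators (3.04), immediate early (3.07) and Wnt target genes (3.22). Ribosomal protein genes had 4.50 and epithelial genes 5.39. Intestinal transcription factors had 2.06, and the lists of other cell types 1.81 or less.

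Of the Wnt target and feedback genes, 14 of 18 had H3K4me1 at the TSS, and 5 had 10 or more intervals (3.73% of all coding genes did). Their median territory was 190.1 kb, against 60.4 kb for all coding genes. DKK1, a secreted Wnt inhibitor, had 19, AXIN2, of the β-catenin destruction complex, 17 and EPHB2, a receptor of crypt cells, 11. NOTUM, a secreted Wnt deacylase gene, had 2 intervals with a median fold enrichment of 12.51. APCDD1 and DKK4 had no assigned interval. LEF1, a TCF/LEF factor, had 4 intervals, none at the TSS, where H3K27me3 was listed. Of the transcription factors of intestinal epithelium, 16 of 24 had H3K4me1 at the TSS, near the share of all genes. Besides TCF7L2 and SOX9, KLF5, a factor of proliferating crypt cells, had 29 intervals and KLF4 23. CDX2, the master factor of intestinal identity, had 4 in a territory of 34.3 kb. FOXA2, PROX1, ISX, HNF4G, GATA4 and CDX1 were among those with none within 1 kb.

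The list of genes for H3K4 methyltransferases, demethylases and coactivators also holds subunits without enzymatic activity. Of its 20 genes, all with H3K4me3 at the TSS, 16 had H3K4me1 there, and the median was 3 intervals. CREBBP, an acetyltransferase of enhancers, had 9, KMT2C 7 and KDM6A, an H3K27 demethylase gene, 6. KMT2D had 3 in a territory of 22.95 kb. Of 24 cytosolic ribosomal protein genes, all with H3K4me3 at the TSS, 17 had H3K4me1 there, and the median number of assigned intervals was 2. RPS23 had 12 and RPS14 6.

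Lists of other cell types had lower shares than all coding genes. H3K4me1 was present at the TSS of 1 of 16 lymphocyte genes (CD79B), 1 of 15 hepatocyte genes (APOA1) and 2 of 15 muscle genes (CKM and TNNT2). None of the genes in these lists had H3K4me3 at the TSS, and of all coding genes without it 11.8% had H3K4me1. The counts were 6 of 16 for fibroblast and mesenchymal genes and 7 of 16 for neuronal genes, with H3K4me3 at 5 and 4 TSSs. The neuronal gene GRIN2B, a glutamate receptor subunit, had 18 intervals and SYT1, a synaptotagmin, 15. In the fibroblast list COL6A3, a collagen gene, had 9 and CDH2 and TWIST1 8 each. Of 414 olfactory receptor genes, 7 had H3K4me1 at the TSS. Of the 15 hepatocyte genes, 4 had no interval within 50 kb, among them ALB, TTR and APOB, whereas HPX had 7. The median number within 50 kb was 2 in the hepatocyte list and 4 over all coding genes.

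The base sequence differed between distal intervals and those at start sites. With the middle base fixed, the AP-1 letters TGACTCA, whose other strand reads TGAGTCA, were in 29.0% of distal windows of 500 bp (28.5 to 29.6%) and in 5.70% of the windows of intervals containing a TSS (5.19 to 6.27%). Of all 5717020 genome windows 7.56% held them. The distal share was thus 3.84 times that of the genome. Distal windows had a median GC content of 46.6% and those at start sites 63.6%, against a mean of 40.9% in the genome. The letters GGGCGGG of SP/KLF factors showed the opposite order, with 48.8% of windows at start sites, 9.31% of distal windows and 2.42% of genome windows. The ETS letters were in 10.8% of windows at start sites, 2.96% of distal windows and 1.18% of genome windows.

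The TCF/LEF, FOXA, GATA, CDX and HNF4 letters had shares near or below those of the genome. In distal windows the letters of TCF/LEF were found in 7.52% (genome 8.24%), of FOXA in 6.99% (7.71%), of GATA in 6.51% (7.18%) and of CDX in 10.6% (16.4%). Those of HNF4 were in 0.710% (0.648%). The letters of TEAD, the factor of YAP signalling, were in 8.98% (7.16%). The letters searched are given with the processing. Distal windows had a higher GC content than the genome, and its part in these shares was not tested.

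The AP-1 letters were concentrated at the middle of the intervals. In 13038 distal intervals of 1 to 3 kb, TGACTCA had 0.804 matches per kb within 200 bp of the midpoint and 0.151 per kb at more than 2 kb from it, a ratio of 5.31. The SP/KLF letters had a ratio of 4.50. For TCF/LEF the ratio was 1.20 and for FOXA 1.07. The midpoint was taken as the centre because the list gives no summit.

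**Figure D5:**
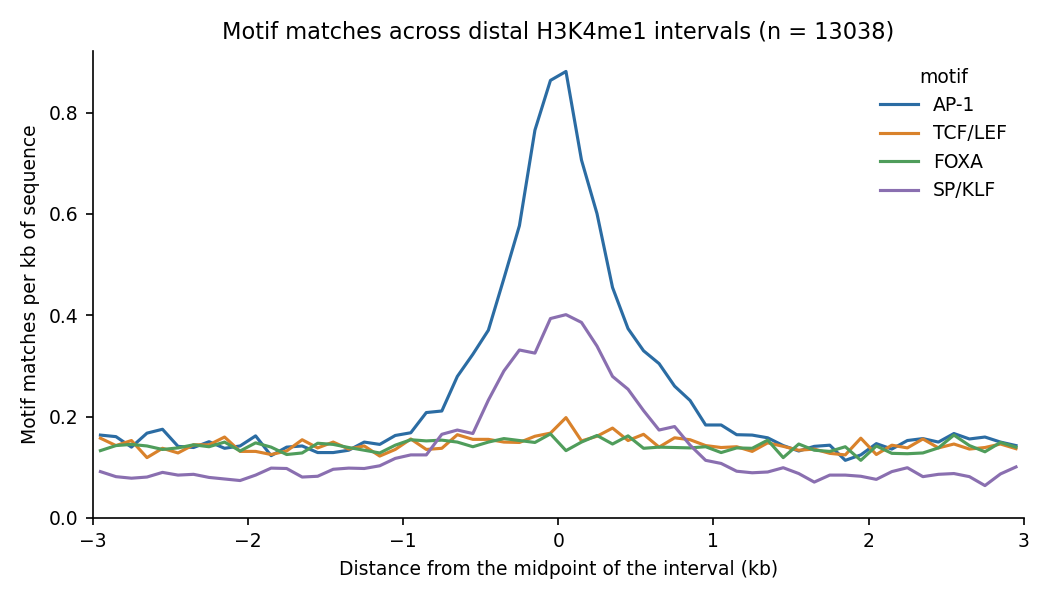
Matches of 4 motifs per kb of sequence (vertical axis) in bins of 100 bp against distance from the midpoint (horizontal axis, kb) of 13038 distal H3K4me1 intervals of 1 to 3 kb. The AP-1 line rises from 0.151 per kb in the outer part to 0.881 in its highest bin, whereas the TCF/LEF and FOXA lines are nearly flat.

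AP-1 letters were found both with and without H3K9Ac. TGACTCA was in 33.4% of the distal windows without H3K9Ac (32.6 to 34.1%) and in 24.6% of those with it (23.9 to 25.3%). This order depended on width. Among intervals over 500 and up to 1000 bp the shares were 35.8% without and 20.6% with H3K9Ac, and among those over 1000 and up to 2000 bp they were 35.7% and 33.1%. In intervals over 2000 and up to 4000 bp the order was reversed, with 20.6% without and 25.2% with H3K9Ac. The highest of the 10 parts by fold enrichment had 28.3% and the lowest 25.7%.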

How the data were processed

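H3K4me1 and 5 further marks were measured by PIXUL-ChIP-seq in HCT116 cells, 1 library each. The authors aligned reads to hg19 with BWA 0.7.12, with duplicates recognised by molecular identifiers, and made each list with the broad mode of MACS2 (cutoff 0.1). The submitters' processing notes name MACS 1.4.2, SAMtools 0.1.19 and bcl2fastq 2.20.0.442. Methods and labels differ on paired-end or single-end reads. The fold enrichment that the authors deposited is a linear ratio over local background. Each interval also carries a −log10 q-value and a −log10 p-value, deposited by the authors and valid for its whole length. The deposited lists reach below the authors' limits, and all intervals were used. The lists hold no read counts, so depth is unknown, and a deeper library would allow more, wider and weaker intervals to be called.

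Distances ran from the nearest edge of an interval to the nearest TSS of the canonical transcript of a protein-coding gene in GENCODE 44 on hg19 (20163 genes, 19881 with a canonical transcript, otherwise the 5′ end of the gene). Overlap required 1 bp. Motifs were searched on both strands. AP-1 was searched as TGANTCA and, with its middle base fixed, as TGACTCA, which the former includes. TCF/LEF was searched as ATCAAAG, FOXA as TGTTTAC and HNF4 as CAAAGTCCA. The letters for the GATA family were AGATAAG. Those for CDX factors were CAATAAA and those for TEAD factors were GGAATGT. ETS factors were searched as CCGGAAG and SP/KLF factors as GGGCGGG. No test was run, since intervals of 1 library are not replicates, and shares carry 95% Wilson intervals.

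Members, gene lists and tests were chosen with earlier results of these data known. The genes named were the 15 with the most intervals (ties by summed width), the 10 densest with at least 10 intervals, and the 3 members of each list with the most intervals together with those holding none. The intervals named were the 10 distal ones of highest fold enrichment, the 5 widest and the 5 longest runs. Further members of the lists, the highest distal interval of each of the 15 genes, the 2 highest intervals of the whole list, the genes that hold intervals assigned to others, and motifs other than TGANTCA were chosen after values were seen. In the olfactory list no gene is named, and a few members of other lists are not reported here. Alternatives were other limits, TSS sets, distances, windows, overlaps and merging. The tools were samtools 1.23.1, pysam 0.24.0, pandas 2.3.3, matplotlib 3.10.9, scipy 1.17.1 and numpy 2.4.6 under Python 3.11.15. On simulated data the code recovered gene and distance for 1493 of 1493 intervals.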

Additional observations from a re-analysis of the deposited data

How the results depend on the processing

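No paired analysis was possible because no mark had more than 1 library. A count, mean or length was taken as unchanged within 1.5 times, and a share or median within its 95% interval; 17 of 84 recomputed values were unchanged and 67 moved. Filters and merging change how many intervals enter, and other TSS sets how many start sites there are. Otherwise the cause was not tested. Depth limits every count.

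With the authors' limits, the share of intervals containing a TSS was 18.9%, the share over 10 kb 55.6%, the median distance 14675.5 bp, genes with H3K4me1 at the TSS 49.1%, genes with an interval 65.8%, the mean per gene 1.60 and the median width 1906 bp. With the fold limit multiplied by 1.5 these were 18.9%, 55.5%, 14637.5 bp, 49.1%, 65.7%, 1.60 and 1908 bp. In both cases ZFP36L1 had the most intervals (34). With the authors' limits for other marks they were 23.9%, 56.1%, 13965 bp, 7.003%, 15.6%, 0.217 and 3640.5 bp, with 13 intervals at TRIB1, the gene with the most, 23.02 Mb covered and TGANTCA in 34.0% of distal windows.

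With every coding transcript, 18.4% of intervals contained a TSS, 51.1% lay over 10 kb away, the median distance was 10717 bp, 65.3% of genes had H3K4me1 at the TSS and 76.7% an interval. With genes of every class these were 18.8%, 40.9%, 6190 bp, 30.9% and 43.96%, with a mean of 0.784 and 25 intervals at the gene with the most, MIR5702. From the midpoint, 60.7% were over 10 kb away and the median was 19568 bp. Merging within 5 kb gave 25.9% containing a TSS, 63.1% over 10 kb, a median of 22489.5 bp, 62.9% of genes marked at the TSS, 72.0% with an interval, 29 at MYC and a median width of 1940.0 bp. With TSS windows of 500 bp and 2000 bp, 50.4% and 65.7% of genes were marked.

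The distal share overlapping each mark, with the authors' limits on both lists, with at least 50% of the interval covered and with distal as over 50 kb, was 7.16%, 4.37% and 9.26% for H3K4me3, 9.95%, 33.8% and 47.8% for H3K9Ac, and 0.747%, 2.20% and 4.93% for H3K27me3. It was 0.0334%, 7.25% and 10.02% for H3K36me3 and 17.4%, 11.4% and 19.9% for CTCF. Over 5 kb it was 13.7% for H3K36me3 and 23.4% for CTCF. TGANTCA was in 25.3% of distal windows of 300 bp and 52.5% of 1000 bp (genome 9.31% and 27.7%). TGACTCA, added after seeing the data, was in 29.0%.

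Of the 15 genes with the most intervals, 10 remained with the authors' limits, 4 with those for other marks (TRIB1, SOX9, TCF7L2 and MYC), 11 with every coding transcript, 11 after merging, 15 from the midpoint and 1 (TNS3) with genes of every class.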

Other observations

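The genes at ranks 16 to 25 by number of H3K4me1 intervals were again mostly marked far from the TSS. NR2F1, a nuclear receptor gene, had 32 intervals, as many as TIGIT, 24 of them with H3K9Ac, and reached 1027 kb upstream. GSE1 had 32, all inside its own body, and at 11.1 per 100 kb was the densest of the 25 genes with the most intervals. MSX2, a homeobox gene, had 31 intervals, of which 11 overlapped H3K27me3, the most among these 25 genes. ZFP36L2, the close relative of ZFP36L1, also had 31. SOX4, a factor of progenitor cells, had 30, and CUX1 and FAT1, an atypical cadherin, had 29 each. These genes were named after their values were seen.

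Genes with CTCF within 1 kb of the TSS had H3K4me1 there in 88.7% of 5940 cases, and those without CTCF in 49.8% of 14223. Their mean numbers of assigned intervals were 3.40 and 2.13. Genes with H3K36me3 at the TSS had a mean of 2.15 assigned intervals and those without it 2.53, whereas their medians within 50 kb were 6 and 3. These are descriptions of lists from 1 library each.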
